A study of Mus musculus with 4 samples.

Results

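The peaks described here are those that spanned a stop codon. In the authors' annotation of each peak they had a share of their length in coding sequence, a share in 3' UTR, and none in intron or 5' UTR. There were 1139 such peaks among 38081 in all: 463 of 15511 peaks in replicate 1, which is 2.98% with an exact binomial 95% interval of 2.72 to 3.26%, and 676 of 22570 in replicate 2, which is 3.0% (2.78 to 3.23%). They lay in 463 genes in replicate 1 and in 674 in replicate 2. The cells were BMDMs of the mouse, that is, macrophages derived in culture from bone marrow. The RNA that came down with IGF2BP2 was sequenced in 2 immunoprecipitation libraries, replicate 1 and replicate 2, each with a peak list of its own, and 2 input libraries were not analysed here. The labels give no strain, sex, age, genotype or treatment. They conflict on the antibody, which is given as anti-IGF2BP2 in a sample field and as anti-Flag in the protocol.

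IGF2BP2 is a cytoplasmic RNA-binding protein that has been described as a reader of N6-methyladenosine (m6A), the methylated form of adenosine in mRNA, and as a protein that stabilises the mRNAs it binds. In mammalian mRNAs m6A is known to be most frequent near stop codons and in the 3' UTR, the untranslated stretch that follows the stop codon and carries many sites for regulatory proteins. Most mammalian genes have their stop codon in the last exon, so an mRNA read from its coding end into its 3' UTR usually passes no further splice junction after the stop codon. A peak is a stretch of the genome where sequenced fragments, called tags, pile up, and its summit is the position where the pile is highest.

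A peak list holds no input value, so a tag count measures how much RNA of that stretch was sequenced and not an enrichment. The library depth is unknown. All tags in peaks summed to 189393 in replicate 1 and 324456 in replicate 2, of which the stop-spanning peaks held 6496 (3.43%) and 11188 (3.45%). No label ties a replicate to a culture or an animal, so the spread between the libraries may be technical. Of 32 macrophage marker genes, 20 had a sense peak in both lists, among them the receptor genes Csf1r, Adgre1 and Mrc1. A further 7 of the 32, Lyz2 and Cd14 among them, had a sense peak in neither list.

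The sequences below stand for genes with high tag counts in both libraries. Each is 30 nt of mRNA, read 5' to 3' from the GENCODE transcript on GRCm38, with 12 nt of coding sequence before the stop codon and the stop codon in capitals. They are shown because these stop codons lay inside the peaks of both libraries.
Spp1: tctgaggtcaacTAAagaagaggcaaaaac
Canx: ccacgaagagagTGAaacaatctttaagaa
Arhgdia: gagtggaaggacTGAgctccagctgggaga
Pdxk: gccacagtgctgTGAggaccacacccactc
Fcer1g: aaaccaccccagTAGcttcagaacagacgt
Fcgr2b: cagaaccacattTAGtctcccttggcattg
Atp6v1a: agccttgaagacTAGaactgtgatttcttc
The windows lie at chr5:104440604-104440633 (plus strand, Spp1), chr11:50296267-50296296 (minus strand, Canx), chr11:120579216-120579245 (minus strand, Arhgdia), chr10:78440786-78440815 (minus strand, Pdxk), chr1:171229850-171229879 (minus strand, Fcer1g), chr1:170960999-170961028 (minus strand, Fcgr2b) and chr16:44087409-44087438 (minus strand, Atp6v1a). All 3 stop codons occur among them. In Arhgdia the letters ggac, the core of the known m6A consensus, stand directly before the stop codon, and in Pdxk they stand directly after it.

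The name of these peaks was checked against the reference annotation. An annotated stop codon of the gene lay inside 459 of 463 peaks in replicate 1 (99.1%) and 669 of 676 in replicate 2 (99.0%). It was in the last exon of the transcript for 439 (95.6%) and 638 (95.4%) of these. The stop codon was TGA in 50.3% and 50.5%, TAA in 24.0% and 25.7%, and TAG in 25.7% and 23.8%. Over 21653 protein-coding genes, with a single representative transcript for each, the shares were 49.3% TGA, 27.9% TAA and 22.9% TAG. The exact 95% intervals of the stop-spanning peaks held these values for all 3 stop codons in both libraries.

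Stop-spanning peaks were long and not dense. Their median length was 235 nt in replicate 1 and 260.5 nt in replicate 2, against 120 and 123 nt for peaks wholly in coding sequence and 251 and 270 nt for peaks wholly in 3' UTR. A peak that covers both regions has to reach across the stop codon, so the rule itself bears on length. In 46.8% and 51.1% of wholly coding peaks both edges lay on exon edges, against 2.81% of stop-spanning peaks in each library. The part of exon edges in these lengths, and in tags per 100 nt, was not tested. The median tag count of stop-spanning peaks was 8 and 11, with a range of 3 to 448 in replicate 1 and 3 to 141 in replicate 2. The medians were 8 and 9 for wholly coding peaks and 8 and 9 for wholly 3' UTR peaks. Per 100 nt, the stop-spanning peaks had a median of 3.80 and 4.25 tags, wholly coding peaks 6.56 and 7.29, and wholly 3' UTR peaks 3.19 and 3.45. On this scale they lay between both neighbours and nearer to the 3' UTR. Peaks at the weak end, with 3 to 5 tags, were 19.9% and 12.7% of them, against 32.5% and 24.3% of all peaks. Peaks of 50 tags or more numbered 10 and 26. These were 2.16% and 3.85% of stop-spanning peaks, against 1.69% and 3.12% of all peaks. The exact binomial intervals of the stop-spanning shares, 1.04 to 3.94% and 2.53 to 5.58%, held the shares of all peaks.

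The peaks were centred on the stop codon. The summit lay a median of 3.5 nt after the first base of the stop codon in replicate 1, with quartiles at -54 and 71.8 nt, and 1 nt after it in replicate 2, with quartiles at -52 and 75.8 nt. It was within 50 nt of that base in 43.2% and 43.5%. The median peak covered 87 and 99 nt of coding sequence before the stop codon and 132 and 142 nt of 3' UTR after it. That was a median of 11.5% and 13.4% of the annotated 3' UTR, so the distal part of the 3' UTR was mostly outside these peaks. Most of the length was in 3' UTR in 60.7% and 60.1% of them. Among peaks within the stop codon's exon, 41.6% and 49.8% still covered the position 100 nt before the stop codon, and 63.8% and 64.6% the position 100 nt after it. At 300 nt the shares were 4.27% and 4.52% before the stop codon and 16.0% and 21.5% after it. Peaks chosen in this way cannot extend past the start of that exon. Over members with an annotated stop codon, the exon held a median of 128 and 135 nt of coding sequence, with lower quartiles of 75 and 80 nt. The annotated 3' UTR had a median of 1134 and 1040 nt. The part of these lengths in the uneven coverage was not tested. The central position is in part set by the rule, since a member has to reach both sides of the stop codon.

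**Figure D1:**
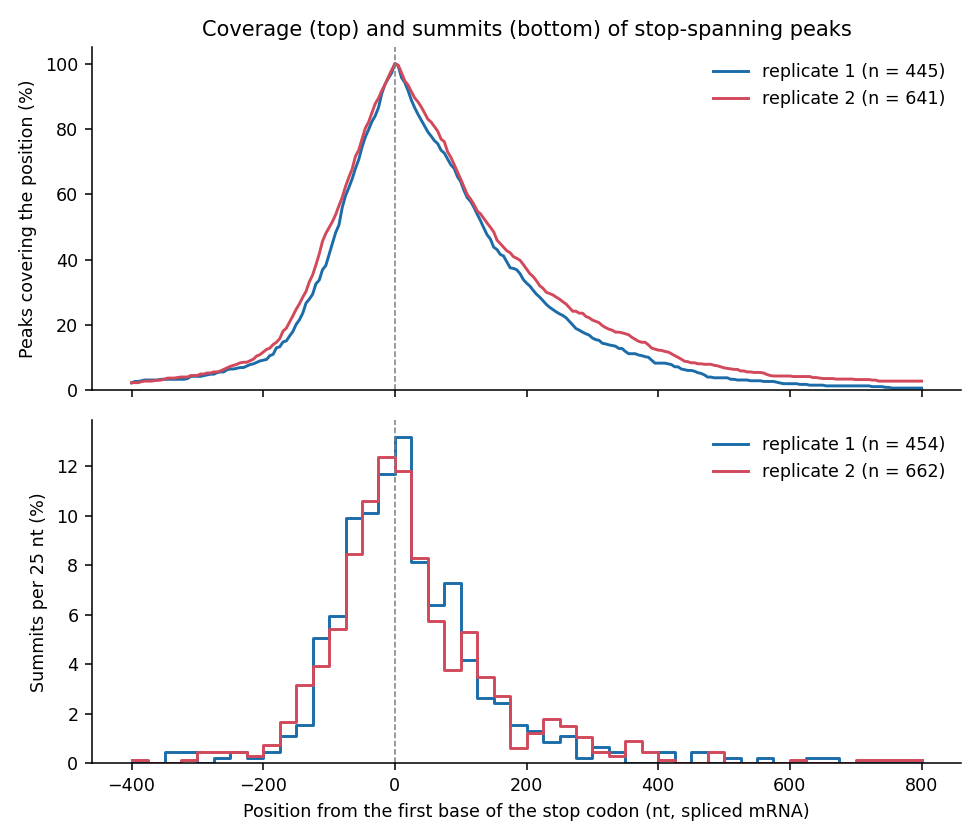
The upper panel plots the percent of stop-spanning peaks within the stop codon's exon that cover each position around the stop codon (x axis, nt of spliced mRNA from its first base), and the lower panel the percent of summits per 25 nt, with 1 line per library. Coverage falls faster before the stop codon than after it. It is 41.6% and 49.8% at 100 nt before and 63.8% and 64.6% at 100 nt after. Peaks within that exon cannot extend past its start, which limits coverage before the stop codon. The summits pile up around 0.

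On the coding side the peaks often ended exactly where an exon began. Of the peaks within the stop codon's exon, 228 of 445 in replicate 1 (51.2%, exact 95% interval 46.5 to 56.0%) and 353 of 641 in replicate 2 (55.1%, 51.1 to 59.0%) had their upstream edge on the first base of that exon, the splice junction. Leaving out peaks whose exon is the gene's first, the shares were 52.1% and 55.7%, against 0.228% and 0.315% with the edge 1 nt further in. On the other side, 4.49% and 3.59% had their downstream edge on the last base of the exon. That base was mostly the annotated end of the transcript and not a junction, since the stop codon was usually in the last exon. The shares of the upstream and downstream edges are thus not alike in kind. For comparison, 88.3% and 89.4% of wholly coding peaks and 1.64% and 1.94% of wholly 3' UTR peaks had at least 1 edge on an exon edge. A part of the peaks that stopped at the junction had a neighbour across the intron: in 80 of 228 (35.1%) and 127 of 353 (36.0%) another peak of the same library ended on the last base of the exon before. The sources used here do not say how the peak caller treated reads that cross a junction. Those edges are thus edges of listed peaks and not known limits of the bound RNA.

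**Figure D2:**
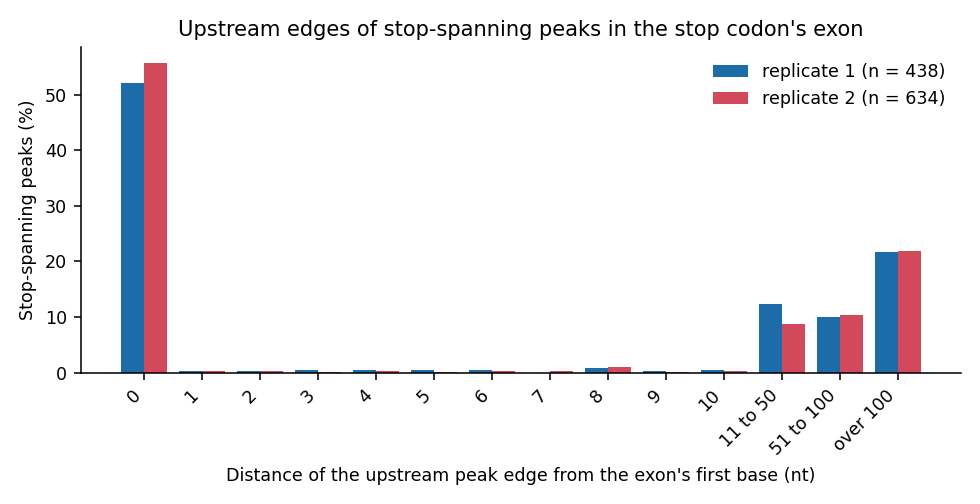
Bars give the percent of stop-spanning peaks whose upstream edge lay at each distance (x axis, nt) from the first base of the stop codon's exon, for peaks within that exon where it is not the gene's first exon, with 1 colour per library. The bars at 0 stand at 52.1% and 55.7%, and no single distance from 1 to 10 nt exceeds 1.1%.

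The position of the summit went with that edge. Over all members with an annotated stop codon, the summit lay before the stop codon in 218 of 459 (47.5%, 42.8 to 52.2%) and 326 of 669 (48.7%, 44.9 to 52.6%), while coding sequence made up a mean of 43.8% and 42.9% of their length. Of the peaks with an upstream edge on the junction, the summit was in coding sequence in 59.0% and 59.5%, beside a mean coding share of 46.4% and 45.8%. Of the others it was there in 35.6% and 35.9%, beside 41.2% and 39.5%. The summit stood within 5 nt of the upstream edge in 12.8% and 18.7% of the junction peaks, and in 0.444% and 0.327% of the others. The summit shares are descriptions of 2 libraries and were not tested.

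The strongest stop-spanning peaks found in both libraries included those of Spp1, Canx, Arhgdia and Pdxk. A total of 158 pairs of stop-spanning peaks, in 158 genes, overlapped between the libraries, and 19 of the 20 genes with the highest mean rank by tags are described here. Each peak of the 20 had more tags than at least 92.3% of all peaks of its library. In all 20 the stop codon was in the last exon. Tags are given as counts of single libraries that were not scaled to each other. These values chose the genes and are a description, and the order below, by known roles, comes from no list or test.

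Spp1 came first. It encodes osteopontin, a secreted glycoprotein made in quantity by macrophages. Its peak had 98 tags in replicate 1 and 120 in replicate 2 and was the strongest of the gene in both. The listed edges were the same in both libraries, chr5:104440229-104441040 on the plus strand, and this was the only gene of the 20 in which the downstream edge was shared. It ran from the junction of exon 7 of 7 through 387 nt of coding sequence and 422 nt of a 3' UTR of 432 nt. The summits lay 196 nt before the stop codon in replicate 1 and 72 nt before it in replicate 2.

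Genes of the endoplasmic reticulum followed. Canx, which encodes calnexin, a lectin chaperone for folding glycoproteins, had 50 tags in replicate 1 and 86 in replicate 2. Its stop exon begins with only 51 nt of coding sequence, and both summits stood at or 1 nt from that junction, 50 and 51 nt before the stop codon. Pdia4, which encodes a protein disulfide isomerase, had 44 and 45 tags, with summits 64 nt before and 6 nt after the stop codon. These are close in tags but start at different places, 413 nt before the stop codon on the junction in replicate 1 and 211 nt before it in replicate 2.

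Genes tied to the lysosome were among the 20 as well. Atp6v1a, which encodes the catalytic A subunit of the proton pump that acidifies lysosomes, had 39 tags in replicate 1 and 30 in replicate 2, with summits 27 and 12 nt after the stop codon. Cln8, whose human counterpart is mutated in a form of neuronal ceroid lipofuscinosis, had 34 and 30 tags, with summits 556 and 288 nt after the stop codon. Its replicate 1 peak began 12 nt before the stop codon and was 2% coding. Atp6v1a thus had its summits beside the stop codon in both libraries, and Cln8 well inside the 3' UTR.

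Immune receptors and their signalling partners formed another group. Fcer1g, which encodes the signalling gamma chain shared by several Fc receptors, had 43 tags in replicate 1 and 39 in replicate 2, with summits 60 and 51 nt before the stop codon, at or near the junction. Fcgr2b, the inhibitory receptor for IgG, had 30 and 48 tags with summits 268 and 166 nt after the stop codon. Gpr65, a proton-sensing receptor, had 32 and 32 tags. That was the only sense peak of Gpr65 in either list, and its summits lay 136 and 613 nt before the stop codon. Cyba, which encodes the p22phox subunit of the phagocyte NADPH oxidase, had 29 and 37 tags. Its summits, 41 and 40 nt before the stop codon, were 1 nt apart, and its peaks ran past the annotated end of the transcript.

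Regulators of actin and of small GTPases were also present. Arhgdia, which encodes an inhibitor that holds small GTPases of the cytoskeleton in the cytosol, had 32 tags in replicate 1 and 119 in replicate 2. Its summits were 29 and 32 nt after the stop codon although the replicate 2 peak was 1316 nt long and the replicate 1 peak 352 nt. Nckap1l, the blood-cell subunit of the WAVE complex that starts actin branching, had 32 and 48 tags and summits 91 and 89 nt after the stop codon. Myh9, which encodes the heavy chain of non-muscle myosin, had 31 and 33 tags and summits 23 and 49 nt before the stop codon in exon 41 of 41. Cyth4, an exchange factor for Arf GTPases, had 33 and 34 tags with summits 9 nt before and 17 nt after the stop codon. Plxnd1, a receptor for semaphorins, had 33 and 30 tags and summits 243 and 207 nt after it. In these 5 genes the summits of the libraries were 2 to 36 nt apart.

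Metabolic enzymes were Pdxk and Tkt. Pdxk, the kinase that makes active vitamin B6, had 34 tags in replicate 1 and 79 in replicate 2, with summits 110 and 145 nt after the stop codon. Tkt, which encodes transketolase of the pentose phosphate pathway, had 25 and 45 tags, with summits 106 and 63 nt before it. In Tkt more of the peak was coding than 3' UTR, 57% against 43% in replicate 1 and 65% against 35% in replicate 2. Also among the 20 genes were 5031439G07Rik (31 and 87 tags), 2010111I01Rik (39 and 32 tags) and Fam219a (24 and 43 tags).

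Across the 20 genes, 15 had the upstream edge on the junction in both libraries and shared it, while 1 shared the downstream edge. In 11 of the 20 the summits were within 50 nt of each other. In 7 the stop-spanning peak was the strongest sense peak of its gene in both libraries. Tags were higher in replicate 2 in 14 genes, equal in 1 and higher in replicate 1 in 5.

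Over all 158 overlapping pairs, which include those 20, the upstream edge was identical in 77 (48.7%) and the downstream edge in 12 (7.59%). Upstream edges often lay on the junction in each library, in 51.2% and 55.1% of peaks within the stop codon's exon. Identical upstream edges thus need not show closer agreement of the libraries on the coding side, and the part of junctions was not tested. The summits were a median of 29.5 nt apart, with quartiles at 9 and 86 nt, and within 50 nt of each other in 98 pairs (62.0%). Both lay before the stop codon in 56 pairs and both at or after it in 69, on different sides in 30, and in 3 pairs a summit was outside the transcript. Tag counts of the paired peaks went together, with a Spearman rank correlation of 0.77 and a Pearson r of 0.75 of log2 tags over the 158 pairs. This is a description across peaks of the same 2 libraries, which share gene abundance. Over the 5566 overlapping pairs of all peaks the rank correlation was 0.755. The median log2 difference in tags, replicate 2 minus replicate 1, was 0.35 for the stop-spanning pairs and 0.47 for all pairs. Replicate 2 had more tags in 113 stop-spanning pairs, replicate 1 in 32, and 13 were equal.

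**Figure D3:**
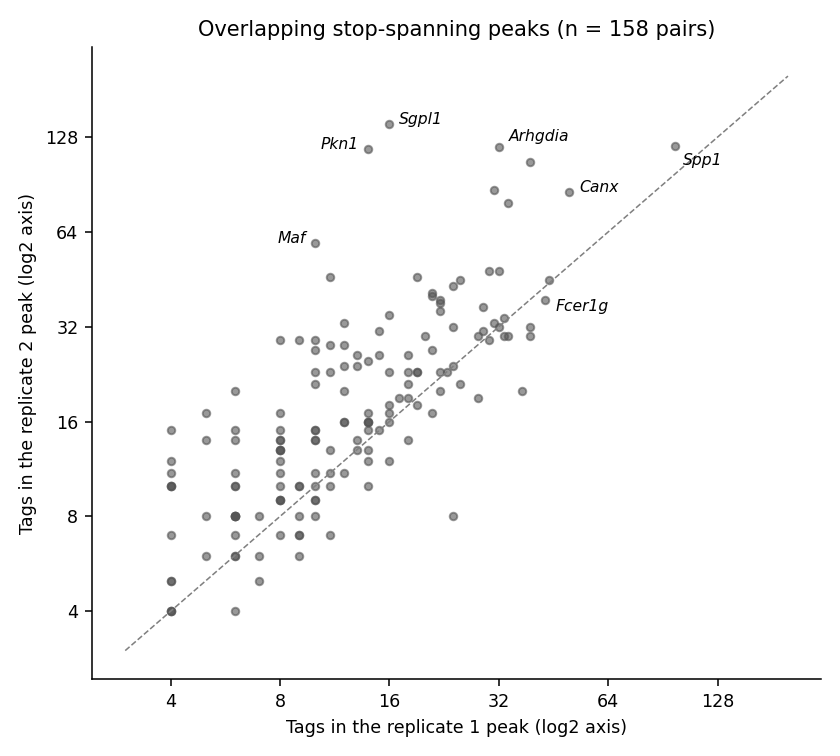
Each point is 1 of 158 pairs of overlapping stop-spanning peaks, with its tags in replicate 1 on the x axis and in replicate 2 on the y axis, both on log2 axes. Most points, 113 of 158, lie above the dashed line of equal tags, and Spp1 (98 and 120 tags) has the most tags in replicate 1.

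When any overlapping peak counted, stop-spanning peaks were found again in the other library more often than wholly 3' UTR peaks. A peak was counted as recurring when a peak of any kind in the other list shared at least 1 bp with it on the same strand. Of the stop-spanning peaks 219 of 463 in replicate 1 (47.3%, exact 95% interval 42.7 to 52.0%) and 244 of 676 in replicate 2 (36.1%, 32.5 to 39.8%) recurred. The background over all peaks was 34.8% in replicate 1 and 23.6% in replicate 2. Wholly 3' UTR peaks recurred in 37.6% and 26.9%, with odds ratios of 1.49 in replicate 1 (95% interval 1.2 to 1.84, adjusted p = 0.00043, Fisher's exact test) and 1.54 in replicate 2 (1.27 to 1.86, adjusted p = 5.24e-05), stop-spanning over 3' UTR. Wholly coding peaks recurred in 44.8% and 28.9%. Against these the odds ratio was 1.10 in replicate 1 (0.912 to 1.34, adjusted p = 0.327), which did not pass the threshold of 0.05, and 1.39 in replicate 2 (1.18 to 1.64, adjusted p = 0.000257, Fisher's exact test). These are two-sided Fisher's exact tests with Benjamini-Hochberg adjustment over the 4 tests. Peaks are not independent replicates, and longer peaks have more room to overlap. In a logistic model with log2 tags and log2 length none of the 4 odds ratios passed: they were 1.30 and 1.21 against 3' UTR peaks and 0.841 and 0.973 against coding peaks, so the direction against coding peaks turned. When the partner had to be a peak of the same kind, the odds ratios against 3' UTR peaks were 1.05 in replicate 1 and 0.894 in replicate 2, and with at least 10 tags they were 1.35 and 1.28, none of which passed.

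Recurrence went up with tag count in every kind of peak, and the kinds were compared within tag classes without a test. Among peaks of 3 to 5 tags, stop-spanning peaks recurred in 23.9% in replicate 1 and 14.0% in replicate 2, wholly coding peaks in 17.6% and 7.36%, and wholly 3' UTR peaks in 11.0% and 5.22%. Among peaks of 11 to 20 tags, the shares were 64.8% and 43.3% for stop-spanning, 69.0% and 43.4% for coding and 58.5% and 35.8% for 3' UTR peaks. With 21 tags or more, 53 of 76 stop-spanning peaks of replicate 1 recurred (69.7%, 58.1 to 79.8%) and 97 of 153 of replicate 2 (63.4%, 55.2 to 71.0%), against 81.2% and 69.1% of coding and 63.2% and 67.9% of 3' UTR peaks. The intervals of stop-spanning and coding peaks overlapped in these 3 classes in both libraries. Among stop-spanning peaks within the stop codon's exon, junction peaks recurred in 51.3% and 38.5%, and peaks with another upstream edge in 42.9% and 33.0%. Junction peaks also had more tags, with medians of 10 and 14 against 8 and 9.5 over all members with an annotated stop codon. The part of tags in this difference was not tested. Of the recurring stop-spanning peaks, 72.1% in replicate 1 and 64.8% in replicate 2 overlapped another stop-spanning peak, and the rest overlapped peaks of other kinds.

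**Figure D4:**
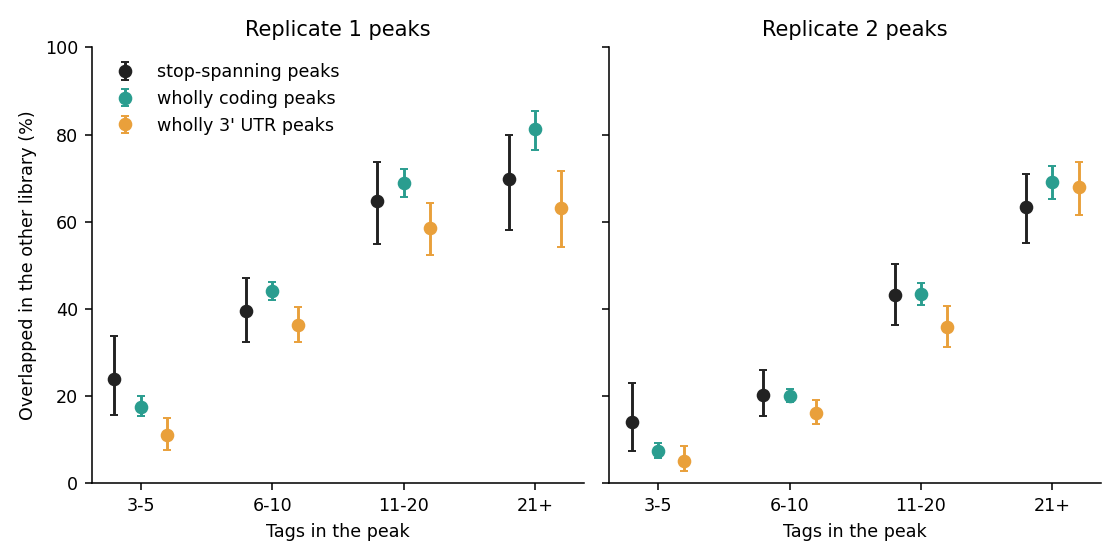
Points give the percent of peaks overlapped by a peak of the other library (y axis) by tag class (x axis), for stop-spanning, wholly coding and wholly 3' UTR peaks of replicate 1 (left) and replicate 2 (right), and bars are exact binomial 95% intervals. All kinds climb with tags, and stop-spanning peaks stand at 23.9% and 14.0% in the weakest class and at 69.7% and 63.4% in the strongest.

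Some strong stop-spanning peaks were listed in a single library. The 5 strongest in replicate 1 that no same-strand peak of replicate 2 overlapped were those of Mpeg1 (448 tags), Il6st (136), Plau (119), Csf2rb (85) and Pkm (67). In replicate 2 they were those of Unc93b1 (78), Csf1r (75), Csf2ra (71), Ckap4 (65) and Cfp (62). Cytokine receptor genes were among them in both lists: Il6st encodes the shared receptor subunit gp130, Csf2rb and Csf2ra the subunits of the GM-CSF receptor, and Csf1r the receptor for M-CSF. Mpeg1 encodes perforin-2, a pore-forming protein of macrophages, and Cfp encodes properdin, which stabilises the complement convertase. Neither Mpeg1 nor Cfp had any sense peak in the other list, and the 1 peak of replicate 2 that overlapped the Mpeg1 peak was on the opposite strand. The other 8 genes did have peaks elsewhere in the other list, of which the strongest had 215 tags for Csf1r, 124 for Csf2ra, 73 for Plau, 57 for Pkm, 55 for Csf2rb, 54 for Il6st, 37 for Unc93b1 and 16 for Ckap4. The Mpeg1 peak was the longest stop-spanning peak of replicate 1, at 2758 nt and 77% coding, with its summit 938 nt before the stop codon. With no depth and no input value, absence from a list does not show that the RNA was absent.

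The members at the limits of the rule had nearly all of their length on 1 side of the stop codon. In replicate 1 the smallest coding share was 1%, in Arpc4, Cul4a and Emc3, and the smallest 3' UTR share was 2%, with Asph and Hsbp1 as examples. In replicate 2 the smallest coding share was 1%, in Adipor1, Btg1 and Dpysl2, and the smallest 3' UTR share was 1%, in Eif1a and Srcap. Just outside were 1 peak in replicate 1 (Tgoln1, 73 tags) and 6 in replicate 2 (Dip2c, Hs1bp3, Glrx5, Cox7a2l, Pds5a and Kpnb1, 6 to 71 tags), whose smaller share was written as 0.0 in the files. A further 82 and 166 peaks reached coding sequence and 3' UTR but also had an intron share and were left out by the rule.

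The genes in the series' title had no stop-spanning peak. Tsc1, the gene for hamartin of the TSC complex that restrains mTORC1, came nearest: its closest peaks, both wholly coding, ended 148 nt before the stop codon in replicate 1 (6 tags) and 116 nt before it in replicate 2 (13 tags). Pparg, the gene of a fatty-acid-responsive nuclear receptor, had its closest peaks in introns, 87561 and 14418 nt of genome before the stop codon. Igf2bp2 had no sense peak in replicate 1, and its closest one in replicate 2 lay 19186 nt of genome away.

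Stop-spanning peaks in both libraries were counted over 12 lists of genes grouped by function, and the counts, which were not tested, stand beside the background. Of 3739 protein-coding genes with a sense peak in both libraries, 161 (4.31%) had a stop-spanning peak in both and 732 (19.6%) in at least 1. On the list of TSC and mTORC1 genes it was 3 of 21 in both and 5 of 21 in at least 1. Rragc, one of the Rag GTPases that bring mTORC1 to the lysosome, had 8 tags in replicate 1 and 29 in replicate 2. Rheb, the GTPase that the TSC complex switches off, had 11 and 7 tags, with summits 88 and 81 nt before the stop codon. Eif4ebp2, a translation repressor that mTORC1 phosphorylates, had 12 and 16 tags. The summits of the libraries were 76 nt apart in Rragc, 128 nt in Eif4ebp2 and 7 nt in Rheb.

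On the macrophage identity list 4 of 20 genes had one in both libraries and 7 of 20 in at least 1. The 4 were Fcer1g and Fcgr2b, given above, the activating receptor gene Fcgr3 (12 tags in replicate 1 and 16 in replicate 2) and Maf (10 and 59), a transcription factor of tissue macrophages. Fcgr2b and Fcgr3 are close relatives in sequence, and how reads that fit both were assigned is not given in the sources used here. On the lysosome list it was 3 of 30 in both and 9 of 30 in at least 1. Among these were Ctsh, a cathepsin (14 and 17 tags, summits 49 and 48 nt after the stop codon), and Gla, alpha-galactosidase A (8 and 9 tags). For the V-ATPase it was 2 of 12 in both and 4 of 12 in at least 1, with Atp6v1d, a subunit of the pump's rotor (7 and 8 tags), beside Atp6v1a.

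The remaining lists had at most 1 gene in both libraries. For glycolysis it was 1 of 13 in both and 6 of 13 in at least 1, with Pgam1, phosphoglycerate mutase, in both (12 tags in replicate 1 and 24 in replicate 2). For iron genes it was 1 of 8 and 3 of 8, with Hmox1, the heme-degrading oxygenase (10 and 29 tags). For classical activation it was 1 of 11 and 2 of 11, with Hif1a, the hypoxia-inducible factor (4 and 7 tags). For translation factors it was 1 of 19 and 3 of 19, with Eif4b, a cofactor of the initiation helicase (22 and 20 tags). For actin and adhesion it was 1 of 29 and 12 of 29, with Myh9 in both. The list of PPARG and alternative activation had 0 of 19 in both and 5 of 19 in at least 1, in single libraries and never in both: Clec10a (17 tags) and Fabp4 (13 tags) in replicate 1 are examples. The m6A machinery had 0 of 10 and 1 of 10, Alkbh5, an m6A demethylase, with 21 tags in replicate 2. The list of m6A-bound IGF2BP targets in human cells had 0 of 10 in both and 0 of 10 in either. The lists held 13 to 40 genes, and only the 8 to 30 with a sense peak in both libraries were counted, so these shares rest on few genes. Without that limit, genes with a stop-spanning peak in at least 1 library were 7 for TSC and mTORC1, 7 for PPARG and alternative activation and 7 for glycolysis. They were 5 for the V-ATPase and 3 for classical activation, and the other lists kept their counts.

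Genes with a stop-spanning peak had a shorter median coding sequence than other genes with peaks in both lists. Among genes with sense peaks in both lists, the median coding sequence was 1198 nt in 160 genes with such a peak in both libraries, 1431 nt in 571 with one in a single library and 1822 nt in 2998 with none. The quartiles were 735.8 and 1856 nt in the first set and 1176 and 2913 nt in the last. The coding stretch of the stop codon's exon was alike, with medians of 133.5, 131 and 135 nt, as was the 3' UTR, with medians of 1196, 1265 and 1240 nt. Stop-spanning peaks were the only sense peak of their gene in 25.3% of cases in replicate 1 and 20.1% in replicate 2. In genes with more peaks they were the strongest in 48.8% and 46.5%. A gene could thus enter these sets through its stop-spanning peaks, whereas a gene with none needed other peaks in both lists. The lengths, and the part of this filter in them, were not tested.

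Short letter patterns were counted in windows of 101 nt of mRNA, on the sense strand only. GGAC is the core of the m6A consensus, TGGAC and GGACT contain it and so overlap with it, and CATC, CATT and CATA are forms of the CAU motif described for IGF2BP proteins. Around the summits of stop-spanning peaks GGAC was in 37.3% of windows in replicate 1 (32.8 to 42.0%) and 35.4% in replicate 2 (31.7 to 39.1%). Around wholly coding summits it was in 40.5% and 40.3%, and around wholly 3' UTR summits in 30.7% and 29.9%. In windows centred on the stop codon itself it was in 38.7% and 38.4% for genes with a stop-spanning peak in that library. It was in 41.6% for genes with peaks in both lists and no stop-spanning peak, and in 38.5% for all protein-coding genes. Genes without a stop-spanning peak can still have a peak at the stop codon that the rule left out, such as one with an intron share. For the 157 windows of genes with a stop-spanning peak in both libraries it was in 31.8% (24.6 to 39.7%). Whole peaks held at least 1 GGAC in 67.2% and 68.0%, with 5.39 and 5.73 per kb on the coding side and 4.61 and 4.21 per kb on the 3' UTR side.

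The longer forms were counted in the windows around the stop codon. TGGAC was in 15.7% in replicate 1 and 13.1% in replicate 2 for genes with a stop-spanning peak. It was in 16.3% for genes with peaks in both lists and no stop-spanning peak, and GGACT was in 11.7% and 13.9% against 13.7%. In genes with a stop-spanning peak in both libraries TGGAC was in 10.8% (6.44 to 16.8%) and GGACT in 10.2% (5.94 to 16.0%). The CAU forms were counted in the same windows. Genes with a stop-spanning peak in a library were taken whether or not the other list had a peak of them. The genes set against them had sense peaks in both lists, so the sets were filtered differently. CATC was in 29.4% and 31.9% against 36.3%, CATT in 22.6% and 21.7% against 28.9%, and CATA in 16.2% and 15.2% against 19.1%. Over all protein-coding genes they were 36.0%, 28.7% and 19.7%. GC content of these windows was 52.3% and 52.7% for genes with a stop-spanning peak and 50.9% for those without, and its part in these shares was not tested. No motif share was tested, and a match is a description of letters and not a binding site.

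Of the 20 genes with the highest mean rank among overlapping pairs, 16 held GGAC in the stretch covered in both libraries. These stretches were 270 to 812 nt long, and no share was computed for other stretches of such length. Stop-spanning peaks in general, with median lengths of 235 and 260.5 nt, held GGAC in 67.2% and 68.0%. Windows of 101 nt around the stop codon held it in 38.5% of all protein-coding genes, and in 31.8% of genes with a stop-spanning peak in both libraries. The windows below show the GGAC nearest to the replicate 1 summit, in capitals, for the 6 genes in which it began within 50 nt of the stop codon's first base. They show how close the consensus core can lie to the stop codon inside a peak.
Arhgdia: cgggcagggcgacGGACagacagaaggacc
Pdxk: cacagtgctgtgaGGACcacacccactcgc
Tkt: tcggtattgacaaGGACgccattgtgcaag
2010111I01Rik: tgaaggaacacatGGACagagcatcggccc
Cyba: agcctcagctggaGGACcccaggttaaccc
Myh9: agcccaggcggatGGACaaacggctctgcc
On GRCm38 they lie at chr11:120579186-120579215 (minus strand), chr10:78440784-78440813 (minus strand), chr14:30573454-30573483 (plus strand), chr13:63298797-63298826 (plus strand), chr8:122424906-122424935 (minus strand) and chr15:77761856-77761885 (minus strand). The capitals began 31 nt after the first base of the stop codon in Arhgdia, 3 nt after it in Pdxk and 29 nt after it in Myh9. They began 43 nt before it in Tkt, 40 nt before it in 2010111I01Rik and 42 nt before it in Cyba. In Cyba the motif began 1 nt before the replicate 1 summit, and in Arhgdia it began 2 nt after it.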

How the data were processed

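Each immunoprecipitation library had 1 list of peaks of its own. Per the file headers, the deposited values of a peak are its raw tag count, a maximum height (a coverage signal), a summit, a gene identifier and the fraction of its length in each region. The submitters' processing notes name bcl2fastq, TopHat2 and build GRCm38. Which peak caller, threshold or input control was used is not given in the sources used here. Starts and summits count from 0 in the files (3981 and 5688 starts lay 1 base before an annotated exon start, 28 and 41 on one), so 1 was added.

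Members were matched to GENCODE mouse release 21 on GRCm38, 1138 of 1139. Peaks overlapped when they shared at least 1 bp on the same strand. Recurrence was compared by two-sided Fisher's exact test in scipy 1.17.1, with Benjamini-Hochberg adjustment over 4 tests and a threshold of 0.05. The overlap search and the logistic model were checked on simulated data, and the odds ratio on a fixed table of counts. Logistic models used statsmodels 0.14.6, with pandas 2.3.3 and numpy 2.4.6 (Python 3.11.15). Intervals of shares are exact binomial at 95%, those of odds ratios are 95% intervals of the ratio, and both cover counting error only. No depth is known, so the tags in peaks are not a library size.

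The members, the 12 gene lists, the rules and the tests were chosen with earlier results of these data known. Named genes are those of the title, the 20 highest by mean tag rank among overlapping members, up to 4 per list with a member in both libraries, the 5 strongest per library without overlap, and the members with the smallest shares. Other genes were chosen after their values were seen. The alternatives were other overlaps, tag minima, peak definitions and models. Some of the genes these rules select are not reported here.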

Additional observations from a re-analysis of the deposited data

How the results depend on the processing

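No paired analysis was possible because the input libraries, which share replicate numbers with the immunoprecipitates, were not analysed here. Odds ratios of recurrence are stop-spanning over the other kind, replicate 1 then replicate 2. Against wholly 3' UTR peaks the direction was kept in every alternative run except 1, but the call was lost with at least 10 tags (1.35 and 1.28), in the stronger 50% by tags (1.34 and 1.25), and in logistic models with log2 tags and length (1.30 and 1.21) and with exon edges added (1.27 and 1.17). It was also lost without peaks on exon edges (1.28 and 1.32), and with partners of the same kind it was 1.05 and turned to 0.894. Against wholly coding peaks replicate 1 turned with at least 10 tags (0.799), in the stronger 50% (0.952) and in the models (0.841, and 0.854 with edges). Replicate 2 lost its call with 50% overlap of both peaks (1.21), at least 10 tags (1.14), the stronger 50% (1.12), no exon edge (1.36) and partners of the same kind (1.10), and turned in the models (0.973, and 0.953 with edges). The cause was not tested; these settings use fewer peaks, other partners or a term for tags and length. The alternatives with exon edges and with partners of the same kind, and that for summits, were added after seeing the data.

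The share of members with the summit in coding sequence moved to 35.6% and 35.9% without members at a junction. Stop-spanning peaks were 4.04% of the peaks with at least 10 tags, and 2.46% of all peaks when each side had to hold at least 10% of the peak. Without replicate 1 they were 3.0% and without replicate 2 2.98%. With at least 10 tags, 100 genes had a stop-spanning peak in both libraries. GGAC was in 22.7% and 23.8% of summit windows with 25 nt on each side, and in 60.0% and 60.3% with 100 nt. No input and no depth are known, so peaks of 3 to 5 tags limit what absence from a list can show.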
